A study of Homo sapiens with 145 samples.

Results

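Quercetin at its lowest doses, 1 and 3 µM, was compared with its DMSO vehicle in HT-1080 cells, a human fibrosarcoma line. The arrays were chosen by their labels as quercetin at 1 µM, quercetin at 3 µM or the quercetin vehicle, leaving out replicate number 2, which gave 15 of the 145 arrays of the series. The series exposed this line to quercetin, etoposide or methyl methanesulfonate over a range of doses and read gene expression on Affymetrix arrays after 24 h. The 3 groups used here were cells given 0.1% DMSO alone, cells given 1 µM quercetin and cells given 3 µM quercetin, each in the same vehicle, in 24-well plates, for 24 h, with 5 arrays a group numbered 1, 3, 4, 5 and 6. All are 1 established line, so the groups model the response of that line and of no other cell. The labels do not say whether equal numbers came from separate cultures. The p-values measure how the differences between groups vary from number to number in these samples, a spread that may be technical. The comparison asks which genes change at the lowest doses given, and whether 3 µM differs from 1 µM.

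Quercetin is a plant flavonol that cells conjugate with glucuronate and sulfate and export through ABC transporters. It can be oxidised to a quinone that reacts with cysteines, and KEAP1, the sensor that marks the transcription factor NRF2 for degradation, is read through such cysteines. Freed NRF2 switches on genes for glutathione supply, thioredoxin and quinone reduction. Flavonols are also known ligands of the aryl hydrocarbon receptor and inhibitors of several protein kinases. In tumour cells of mesenchymal origin, interleukin 1 drives prostaglandin synthesis and chemokine release through NF-kB.

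Values are the authors' normalised log2 signals, in which a change of 1 is 2-fold. A gene was read by its brightest probe set and was tested if that reached 4 in at least 5 arrays, which left 10943 genes. Changes come from limma with the replicate number as a block, are given with their standard error (SE) over 5 arrays a group, and passed at a Benjamini-Hochberg adjusted p under 0.05 over all genes tested. Array medians lay between 3.339 and 3.374, and no arrays were identical. Of 15 mesenchymal markers, 13 had a mean of at least 4, led by vimentin (VIM, 13.23), against 4 of 17 epithelial, 1 of 10 blood and 1 of 8 endothelial markers; THY1 and NT5E were under 4. The arrays of number 2 went against their labels. Their gene-wise change had a correlation over the 10943 genes of -0.185 at 1 µM and -0.13 at 3 µM with the mean of the other numbers, which among themselves gave 0.386 to 0.535 and 0.467 to 0.611, while the array labelled etoposide 0.003, number 2, gave 0.618 with the 1 µM mean. Of the 16 genes with the largest pooled changes, all 16 moved the opposite way in number 2 at 1 µM, as did 7 of the 8 falls and 6 of the 8 rises at 3 µM. These moves were mostly small. In number 2 the 8 falls changed by 0.02 to 0.26 at 1 µM and by -0.47 to 0.44 at 3 µM. The 8 rises changed by -0.85 to -0.09 and by -0.52 to 0.32.

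At 1 µM, 895 genes passed (8.18% of those tested), 468 of them higher and 427 lower. At 3 µM, 1394 genes passed (12.7%), 741 higher and 653 lower. With both doses pooled, 1552 genes passed (14.2%), 856 higher and 696 lower. Most changes were small. Only 49 genes passed and changed at least 1.5-fold at 1 µM (0.448%), 9 of them higher and 40 lower, and 77 did so at 3 µM (0.704%), 32 higher and 45 lower. These counts rest on the pairing by number, since arrays of 1 number deviated together. Without the block 18 genes passed at 1 µM, 47 at 3 µM and 47 pooled, and in a fit over all 8 quercetin groups 25, 45 and 63 passed. With number 2 kept, 201, 609 and 567 passed. Leaving out number 4 gave 525 at 1 µM and 1028 pooled. Of 98 genes named by rule that passed pooled, 85 did not pass without the block, 81 in the fit over all 8 groups and 33 with number 2 kept. A set of 7 genes passed pooled under every setting tried: SCG5, IL24, PLA2G4A, ALDH1A3 and STC2, which fell, and CXCL8 and NQO1, which rose. Of the named genes that passed in each single comparison, 4 of 79 at 1 µM and 4 of 93 at 3 µM did so under every setting. Between the doses 0 of 11 did.

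**Figure D1:**
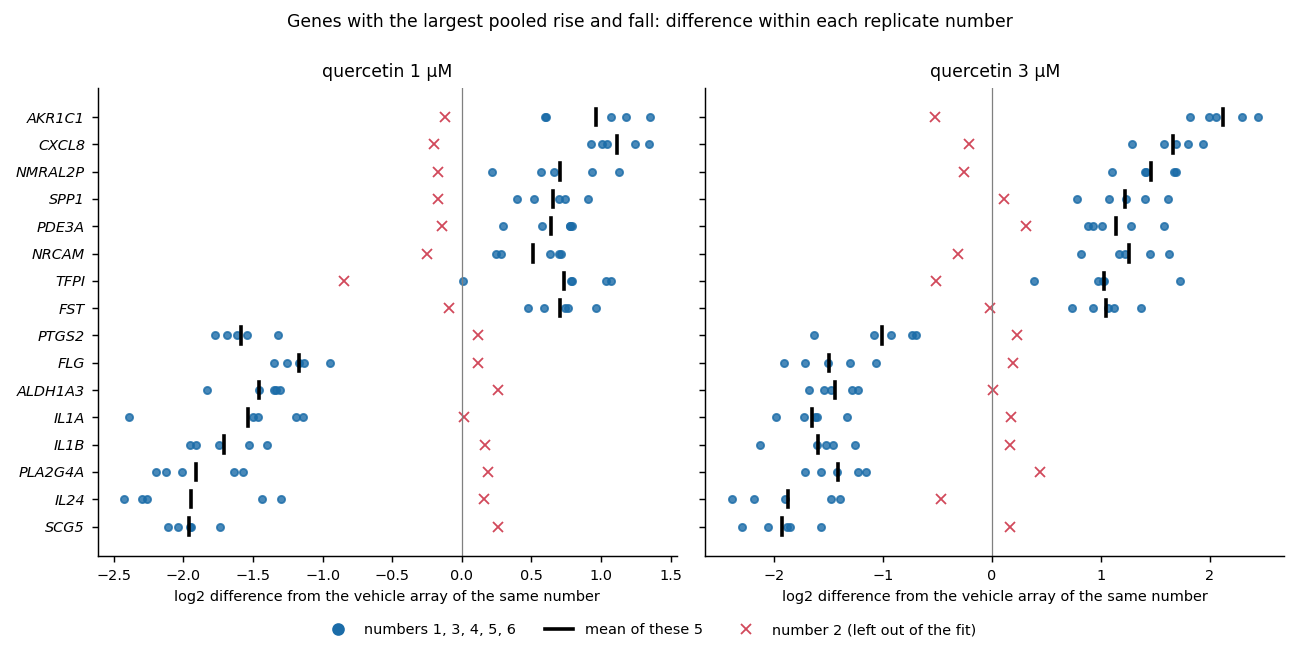
Difference in log2 signal from the vehicle array of the same number, for the 8 genes with the largest pooled fall and the 8 with the largest pooled rise, at 1 and 3 µM quercetin. Circles are numbers 1, 3, 4, 5 and 6, which enter the fit, upright bars their mean, and red crosses are number 2, left out; SCG5 changed by -1.96 at 1 µM and -1.93 at 3 µM, while the crosses lie near or beyond 0 on the other side at 1 µM.

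Among the genes named, the largest fall was that of SCG5, present at 1 µM and of like size at 3 µM. PLA2G4A and PTGS2, also among the largest falls, fell less at 3 µM. SCG5, which encodes 7B2, the chaperone of prohormone convertase PC2, read 9.12, 10.44, 9.87, 9.32 and 9.43 in the vehicle arrays, in the order of numbers 1, 3, 4, 5 and 6 that is kept throughout. It read 7.08, 8.49, 8.14, 7.37 and 7.32 at 1 µM. At 3 µM it read 6.82, 8.87, 8.00, 7.46 and 7.37. No treated array reached the lowest vehicle array at either dose. SCG5 fell by 1.96 ± 0.07 (SE, n = 5 a group; limma adjusted p 1.55e-14) at 1 µM and fell by 1.93 ± 0.07 (adjusted p 1.03e-14) at 3 µM, which is 3.88-fold and 3.81-fold.

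STC2, a secreted glycoprotein induced by stress of the endoplasmic reticulum, read 10.01, 10.97, 10.57, 10.38 and 10.37 in vehicle, 9.07, 9.65, 9.39, 9.30 and 9.10 at 1 µM, and 9.02, 9.70, 9.38, 9.42 and 9.28 at 3 µM. Every treated array lay below every vehicle array, as in 1.14% of genes tested at 1 µM and 1.8% at 3 µM for no overlap in either direction. Its change was -1.16 ± 0.05 (SE; adjusted p 6.8e-14) and -1.10 ± 0.05 (1.4e-13). ALDH1A3, an aldehyde dehydrogenase that makes retinoic acid, read 8.51, 8.98, 8.97, 8.14 and 8.28 in vehicle, 7.16, 7.15, 7.51, 6.81 and 6.97 at 1 µM, and 7.04, 7.44, 7.29, 6.91 and 7.00 at 3 µM, again without overlap. Its fall was 2.74-fold at 1 µM and 2.72-fold at 3 µM. CFAP251, a gene of cilia and flagella, went from 7.13, 7.77, 7.45, 6.90 and 7.24 in vehicle to 5.92, 6.38, 6.11, 5.92 and 5.89 at 1 µM, 2.39-fold lower, and was 2.11-fold lower at 3 µM. In the fit over all 8 groups STC2 (adjusted p 0.0733 at 1 µM, 0.0757 at 3 µM) and ALDH1A3 (0.155, 0.0991) did not pass.

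Both interleukin 1 genes, the phospholipase PLA2G4A and the cyclooxygenase PTGS2 fell at both doses. IL1B, the secreted form interleukin 1 beta, read 9.36, 11.78, 11.50, 10.52 and 10.80 in vehicle and 7.40, 9.88, 10.10, 8.99 and 9.05 at 1 µM. It read 7.23, 10.52, 9.97, 9.06 and 9.19 at 3 µM. The arrays of number 1 were the lowest in each group, so the groups overlapped, yet IL1B was lower in 5 of 5 numbers at each dose. Its change was -1.71 ± 0.09 (SE; adjusted p 3.7e-12), or 3.26-fold, at 1 µM and -1.60 ± 0.09 (7.5e-12), or 3.02-fold, at 3 µM. IL1A, the cell-bound form, read 5.85, 7.47, 7.99, 6.96 and 7.11 in vehicle, 4.35, 5.08, 6.53, 5.81 and 5.92 at 1 µM, and 4.22, 5.49, 6.27, 5.35 and 5.78 at 3 µM. It was lower in 5 of 5 numbers at each dose, 2.9-fold and 3.15-fold. IL24, a cytokine of the interleukin 10 family, went from 5.11, 6.26, 7.21, 5.49 and 5.29 to 3.81, 3.84, 4.95, 3.20 and 3.85 at 1 µM and to 3.64, 4.08, 4.82, 3.59 and 3.89 at 3 µM, with no overlap. The treated means lie near 4, where signal and background are hard to tell apart, so the size of the IL24 fall (-1.94 ± 0.14 and -1.87 ± 0.14) is uncertain.

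PLA2G4A, the cytosolic phospholipase that frees arachidonic acid, read 6.55, 7.90, 6.88, 7.03 and 7.21 in vehicle, 4.91, 5.71, 4.87, 5.46 and 5.08 at 1 µM, and 4.84, 6.68, 5.30, 5.87 and 5.79 at 3 µM. The 1 µM arrays lay below all vehicle arrays, and number 3 at 3 µM overlapped them. It was 3.75-fold lower at 1 µM (-1.91 ± 0.10; adjusted p 8.5e-12) and 2.67-fold lower at 3 µM (-1.42 ± 0.10; 1.3e-09). PTGS2, the inducible cyclooxygenase that acts on that acid, read 8.21, 9.69, 8.76, 8.79 and 8.84 in vehicle, 6.52, 8.15, 7.15, 7.47 and 7.07 at 1 µM, and 6.58, 8.95, 7.84, 8.10 and 7.76 at 3 µM. It too was clear of the vehicle arrays at 1 µM only. Both genes were less reduced at 3 µM than at 1 µM: PTGS2 by 0.58 ± 0.09 (adjusted p 0.0015), higher in 5 of 5 numbers, and PLA2G4A by 0.49 ± 0.10 (adjusted p 0.019). No gene passed between the doses without the block or in the fit over all 8 groups. Without the block IL1B (adjusted p 0.724 at 1 µM, 0.485 at 3 µM), IL1A (0.487, 0.175), PTGS2 (0.175, 0.464) and, at 3 µM, PLA2G4A (0.0525) did not pass. Nor did IL24 at 1 µM (0.0656). In the fit over all 8 groups PTGS2 (0.0667, 0.532) and, at 3 µM, IL1B (0.0513) and PLA2G4A (0.0757) did not pass.

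Among 15 measured genes of NF-kB and secreted inflammatory factors, 4 fell at 1 µM against 3.9% of all genes tested: IL1B, PTGS2, IL1A and LIF, a cytokine of the interleukin 6 family (-0.39). CXCL8 alone rose. At 3 µM, where 5.97% of all genes fell, those 4 were lower and CXCL8, the related chemokine CXCL3 (0.59) and the NF-kB inhibitor TNFAIP3 (0.35) were higher. The list moved in both directions. CXCL8, the neutrophil chemokine interleukin 8, read 9.41, 9.58, 9.41, 8.82 and 9.22 in vehicle, 10.42, 10.92, 10.34, 10.07 and 10.26 at 1 µM, and 10.99, 11.51, 10.70, 10.62 and 10.90 at 3 µM. All treated arrays lay above all vehicle arrays, and 3 µM was above 1 µM in 5 of 5 numbers. CXCL8 rose by 1.11 ± 0.06 (SE; adjusted p 4.7e-12) at 1 µM and by 1.66 ± 0.06 (4.7e-15) at 3 µM, with a step between the doses of 0.54 ± 0.06 (8.6e-06). That step, like those of all other genes, did not pass without the block or in the fit over all 8 groups.

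FST, SPP1, NRCAM and PDE3A, also among the largest rises, were higher at 3 µM than at 1 µM. FST, or follistatin, which binds activins, read 9.92, 9.55, 9.33, 9.34 and 9.28 in vehicle, 10.40, 10.51, 10.09, 9.93 and 10.02 at 1 µM, and 10.66, 10.91, 10.39, 10.26 and 10.40 at 3 µM. The groups did not overlap with vehicle, and the rise was 1.63-fold and 2.06-fold. SPP1, the matrix phosphoprotein osteopontin, read 6.35, 7.67, 6.74, 6.76 and 6.89 in vehicle, 6.75, 8.19, 7.65, 7.46 and 7.63 at 1 µM, and 7.13, 8.75, 8.35, 8.16 and 8.12 at 3 µM. Its groups overlapped, while each number rose from vehicle to 1 µM and again to 3 µM (1.57-fold and 2.33-fold over vehicle). NRCAM, a neuronal adhesion molecule, went from 5.00, 5.57, 5.29, 5.24 and 4.86 to 5.81, 6.74, 6.74, 6.46 and 6.48 at 3 µM, 2.39-fold higher, all above vehicle. PDE3A, a phosphodiesterase of cyclic AMP, went from 4.70, 5.43, 4.89, 4.85 and 5.07 to 5.63, 7.01, 5.77, 5.86 and 6.35 at 3 µM, 2.2-fold higher. At 1 µM NRCAM and PDE3A were 1.43-fold and 1.56-fold higher. Without the block FST (adjusted p 0.0775 at 1 µM), SPP1 (0.999, 0.121) and PDE3A (0.83, 0.0695) did not pass. In the fit over all 8 groups FST (0.898) and SPP1 (0.926) did not pass at 1 µM. In that fit NRCAM (0.0689 at 3 µM) and PDE3A (0.896 at 3 µM, and at 1 µM) did not pass, while SPP1 passed at 3 µM (0.0122).

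The NRF2 genes rose mainly at the higher of these doses. Of 28 measured antioxidant and phase II genes, 8 rose at 1 µM (4.28% of all genes did) and 19 at 3 µM (6.77%). Against these, 2 fell at 1 µM, the regulator gene NFE2L2 and the adaptor SQSTM1 (-0.14), and NFE2L2 alone fell at 3 µM. The median change was 0.11 at 1 µM and 0.31 at 3 µM, beside 0.0071 and 0.0016 over all genes. The direct comparison of 3 with 1 µM had 11 of the 28 higher and none lower, against 0.539% of all genes higher. From 3 to 10 µM, 18 of the 28 rose and 1 fell, beside 16.4% of all genes higher and 13.8% lower. That comparison shares its 3 µM arrays with those above. Without the block 0 rose at 1 µM and 6 at 3 µM (limma; 530 and 791 genes of all those tested had an unadjusted p under 0.05), and with number 2 kept 0 and 18. In the fit over all 8 groups 0 and 7 rose. Of all genes tested, 3 and 22 passed as higher without the block and 53 and 291 with number 2 kept. In the fit over all 8 groups 1 and 15 did. The step from 1 to 3 µM depended on the settings too. Without the block, and in the fit over all 8 groups, 0 of the 28 were higher (limma; 99 and 74 genes of all unadjusted). With number 2 kept, 1 was higher, as were 3 of all genes tested.

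AKR1C1, a reductase of steroids and reactive carbonyls, read 5.23, 7.13, 5.74, 5.28 and 5.49 in vehicle, 5.84, 7.73, 6.92, 6.64 and 6.57 at 1 µM, and 7.05, 9.57, 8.03, 7.33 and 7.49 at 3 µM. Number 3 was the highest in every group, and the groups overlapped, while each number rose at each dose. It was the largest rise at 3 µM, 2.12 ± 0.11 (SE; adjusted p 2.7e-12), or 4.35-fold, after 0.96 ± 0.11 (1.6e-06), or 1.95-fold, at 1 µM. AKR1C2 changed by 0.35 at 1 µM (adjusted p 0.158) and rose by 1.28 (1.3e-06) at 3 µM. AKR1C3 rose 1.71-fold at 3 µM. The AKR1C genes are near-identical copies whose probes can share transcripts, so their separate sizes are uncertain. AKR1B10, a related reductase, read 3.90, 4.15, 3.82, 3.92 and 3.74 in vehicle, 4.28, 4.59, 4.53, 4.44 and 4.45 at 1 µM, and 4.91, 5.30, 4.86, 4.82 and 4.99 at 3 µM. Its groups did not overlap, but the vehicle mean of 3.90 is within background, as is that of the pseudogene NMRAL2P (3.54), which read 2.74-fold higher at 3 µM.

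NQO1, the 2-electron quinone reductase, read 9.99, 10.33, 10.22, 10.09 and 10.14 in vehicle, 10.20, 10.34, 10.54, 10.42 and 10.50 at 1 µM, and 10.52, 10.79, 10.77, 10.67 and 10.77 at 3 µM. The 3 µM arrays all lay above the vehicle arrays. NQO1 rose by 0.25 ± 0.04 (adjusted p 0.00023) and 0.55 ± 0.04 (1.3e-09). TXNRD1, which reduces thioredoxin, read 11.65, 11.76, 11.83, 11.66 and 11.63 in vehicle and 12.03, 12.16, 12.10, 12.01 and 12.11 at 3 µM, a 1.3-fold rise with no overlap. SLC7A11, the cystine importer that feeds glutathione synthesis, read 8.53, 8.80, 9.20, 8.86 and 8.89 in vehicle, 8.78, 8.65, 9.40, 9.46 and 9.49 at 1 µM, and 9.19, 9.96, 9.52, 9.63 and 9.88 at 3 µM. Its 1 µM value did not pass (0.30; adjusted p 0.097), and at 3 µM it rose by 0.78 ± 0.11 (2.1e-05). The glutathione synthesis subunits GCLC (0.42) and GCLM (0.40), glutathione reductase GSR (0.39) and the pentose phosphate enzymes PGD (0.44), TALDO1 (0.32) and TKT (0.30) also rose at 3 µM.

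HMOX1, the heme oxygenase that is a common reporter of NRF2, did not pass at either dose. It read 6.67, 7.92, 6.74, 6.09 and 6.41 in vehicle, 6.53, 7.70, 6.88, 6.49 and 6.50 at 1 µM, and 6.62, 8.23, 6.93, 6.42 and 6.75 at 3 µM, with overlap (0.06, adjusted p 0.75; 0.22, adjusted p 0.061). NFE2L2, which encodes NRF2, read 10.82, 10.90, 10.82, 10.96 and 10.95 in vehicle, 10.41, 10.41, 10.60, 10.59 and 10.65 at 1 µM, and 10.43, 10.50, 10.48, 10.63 and 10.52 at 3 µM. All treated arrays were below all vehicle arrays (-0.36 ± 0.04 and -0.38 ± 0.04). KEAP1 changed by 0.01 and 0.03 and did not pass. Without the block SLC7A11 (adjusted p 0.105), AKR1C1 (0.0682), AKR1C2 (0.326) and GCLM (0.515) did not pass at 3 µM, and AKR1C1 (0.999), NQO1 (0.591) and AKR1B10 (0.0535) did not at 1 µM. With number 2 kept AKR1C1 (adjusted p 0.101), NQO1 (0.0999) and AKR1B10 (0.0726) likewise did not pass at 1 µM. At 3 µM the fit over all 8 groups did not pass TXNRD1 (adjusted p 0.999), SLC7A11 (0.788), GCLM (0.715), NMRAL2P (0.0934) or AKR1B10 (0.0757). It did pass AKR1C1 (0.00084), AKR1C2 (0.0224) and NQO1 (5.77e-05).

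**Figure D2:**
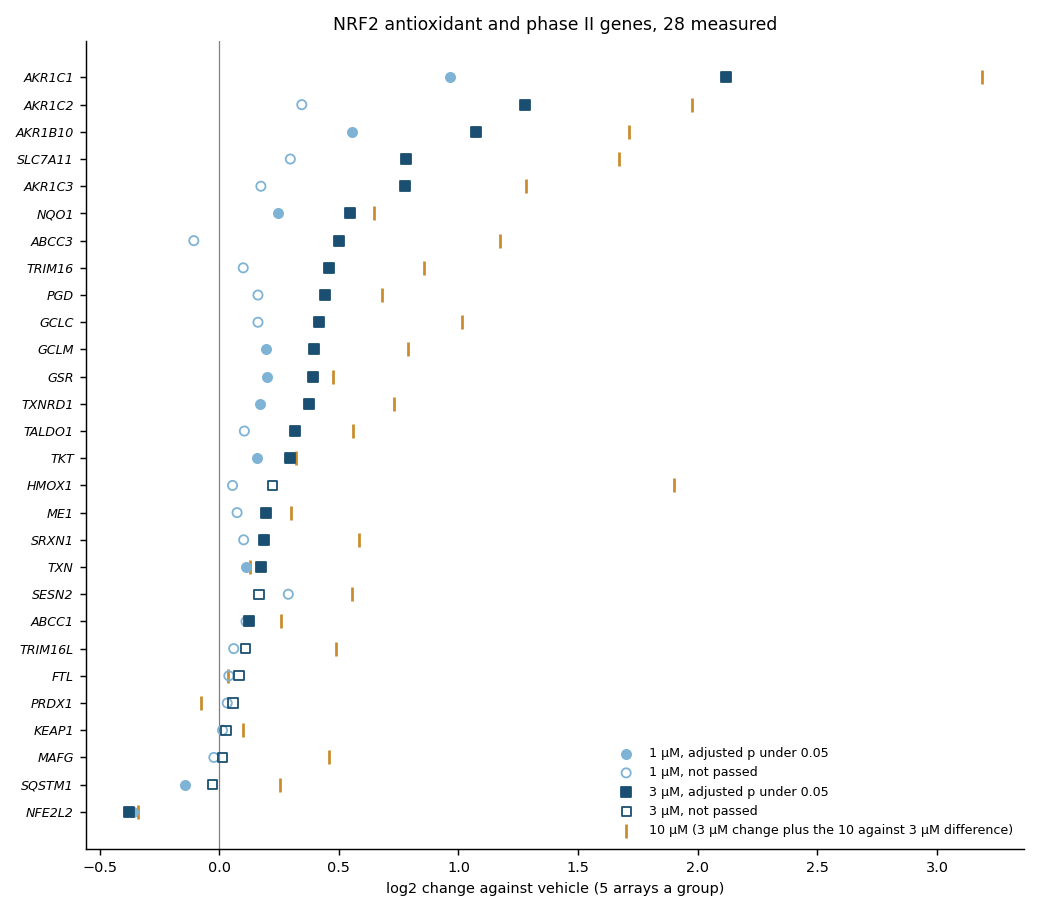
Log2 change against vehicle of the 28 measured NRF2 genes at 1, 3 and 10 µM quercetin, with filled points for changes that passed at 1 and 3 µM, open points for those that did not, and upright ticks for 10 µM. AKR1C1 rose by 0.96 and 2.12 at 1 and 3 µM, whereas HMOX1 stands at 0.06 and 0.22 there and is far higher at 10 µM, a dose at which 39.3% of all genes passed against vehicle.

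NRF2 binds with small MAF proteins to antioxidant response elements, whose core is TGACNNNGC. Promoter windows of 250 bases before to 50 after an annotated start, on either strand, from RefSeq (GRCh38.p14), were searched for these letters. They stood in 4 of the 14 NRF2 genes with a window among the 19 that rose at 3 µM (28.6%), and in 1784 of the 9089 tested genes with a window (19.6%). The following stretches are shown because these genes rose at 3 µM and hold the match, which is in capitals and is a description, not a measured site. They lie at chr1:93909436-93909484 (minus strand, 34 bases before the start), chr6:83431160-83431208 (minus, 137 before), chr1:10398843-10398891 (plus, 201 before) and chr12:104286910-104286958 (plus, 102 before). Except for ME1, the match reads TGACNNNGC on the opposite strand to the gene.
GCLM: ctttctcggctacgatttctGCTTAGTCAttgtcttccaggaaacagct
ME1: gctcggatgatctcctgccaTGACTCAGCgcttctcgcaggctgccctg
PGD: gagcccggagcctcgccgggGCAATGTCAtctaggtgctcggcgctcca
TXNRD1: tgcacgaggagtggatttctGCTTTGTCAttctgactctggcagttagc
ME1, the cytosolic malic enzyme that supplies NADPH, rose by 0.20 at 3 µM and changed by 0.07 at 1 µM.

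In the aryl hydrocarbon receptor axis the receptor rose and its repressor fell. Of 9 measured genes, 2 rose and 4 fell at 1 µM (4.28% and 3.9% of all genes), and 1 rose and 4 fell at 3 µM (6.77% and 5.97%), with the amino acid transporter SLC7A5 (0.21 at 1 µM) among the former and IL1B, PTGS2 and NFE2L2 among the latter. AHR, the receptor, read 8.87, 9.61, 9.45, 9.52 and 9.41 in vehicle, 9.11, 9.85, 9.74, 9.72 and 9.77 at 1 µM, and 9.15, 10.09, 9.81, 9.95 and 9.80 at 3 µM, higher in 5 of 5 numbers at each dose (0.26 ± 0.04 and 0.39 ± 0.04). AHRR, its repressor and target, read 5.76, 6.54, 6.53, 5.91 and 6.19 in vehicle, 5.47, 5.55, 5.90, 5.51 and 5.35 at 1 µM, and 5.48, 5.67, 5.80, 5.42 and 5.65 at 3 µM. It was lower in 5 of 5 numbers, 1.55-fold and 1.5-fold. TIPARP, another target, changed by -0.10 and -0.07 and did not pass. CYP1A1, the classical target, reached at most 3.68 in any of the 15 arrays and was not tested, as was CYP1B1 (at most 3.52). Without the block AHRR (adjusted p 0.192 at 1 µM, 0.15 at 3 µM) and AHR at 3 µM (0.677) did not pass. Nor did they in the fit over all 8 groups (limma adjusted p 0.232 and 0.215 for AHRR, 0.963 for AHR at 3 µM).

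Of 7 measured genes of flavonol conjugation and efflux, 1 fell at 1 µM (3.9% of all genes), and 4 rose and 1 fell at 3 µM (6.77% and 5.97%). ABCG2, an exporter of flavonoid conjugates, fell (-0.38 and -0.35). ABCC3, an exporter of glucuronides, changed by -0.11 at 1 µM (adjusted p 0.51) and rose by 0.50 at 3 µM (0.00018). UGDH, which makes the glucuronate donor, rose 1.28-fold at 3 µM and stood at 1.06-fold at 1 µM without passing. Without the block ABCC3 (adjusted p 0.931) and UGDH (0.352) did not pass at 3 µM. Nor did they in the fit over all 8 groups (limma adjusted p 0.999 and 0.308).

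Compared directly, 3 and 1 µM differed in 80 genes (0.731% of those tested), 59 higher and 21 lower at 3 µM (0.539% and 0.192%). Of the 6 that also differed at least 1.5-fold, all were higher at 3 µM (0.0548%). The largest steps were those of AKR1C1 (1.16 ± 0.11; adjusted p 2.8e-06), AKR1C2 (0.93), NMRAL2P (0.75) and NRCAM (0.74), and the largest falls were C19orf33 (-0.43), TXNIP (-0.39), LINC02535 (-0.35) and the aldehyde oxidase AOX1 (-0.33). TXNIP, an inhibitor of thioredoxin and of glucose uptake, read 8.75, 10.22, 11.12, 10.38 and 10.17 in vehicle, 8.51, 9.59, 10.77, 10.18 and 10.06 at 1 µM, and 8.22, 9.26, 10.27, 9.73 and 9.67 at 3 µM. The groups overlapped and each number was lower at each dose (1.24-fold and 1.62-fold). Without the block TXNIP did not pass against vehicle (adjusted p 0.999 and 0.922). None of the 80 passed without the block (limma; 99 genes had an unadjusted p under 0.05), 0 passed in the fit over all 8 groups (74 unadjusted), and 5 passed with number 2 kept. The count was 36 without number 3, 39 without number 4, 44 without number 5 and 38 without number 6.

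Of the genes described as falling, SCG5, IL1B, IL1A, STC2 and PTGS2 stood higher again at 10 µM, and TXNIP and H2BC21 stood lower still. Against 3 µM, 1799 genes were higher at 10 µM (16.4%) and 1510 lower (13.8%), 30.2% in all, a comparison that shares its 3 µM arrays with those above. IL1B had group means of 10.79 in vehicle, 9.08 at 1 µM, 9.19 at 3 µM and 10.85 at 10 µM, a step from 3 to 10 µM of 1.65 ± 0.11 (adjusted p 6.4e-09), and 11.95 at 30 µM. SCG5 went from 9.64 to 7.68, 7.70, 8.46 and 8.73 over the same doses, and STC2 from 10.46 to 9.30, 9.36, 9.90 and 10.22. PTGS2 rose from 7.85 at 3 µM to 8.74 at 10 µM (adjusted p 2.5e-06), and its mean was 6.34 at 100 µM. CXCL8 had means of 9.29, 10.40, 10.95, 11.84 and 12.02 from vehicle to 30 µM, and was 1.87-fold higher at 10 than at 3 µM.

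AKR1C1 had its highest mean at 10 µM, with of 5.77, 6.74, 7.89 and 8.96 in vehicle and at 1, 3 and 10 µM and 7.14 at 100 µM. NQO1 had means of 10.16, 10.40, 10.70 and 10.80, and its step from 3 to 10 µM did not pass (0.10; adjusted p 0.12). HMOX1 differed: its mean was 6.77, 6.82 and 6.99 up to 3 µM and 8.67 at 10 µM, a rise of 1.68 ± 0.10 (adjusted p 1.1e-09) over 3 µM. TXNIP had means of 10.13, 9.82, 9.43, 8.41 and 7.40 from vehicle to 30 µM.

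**Figure D3:**
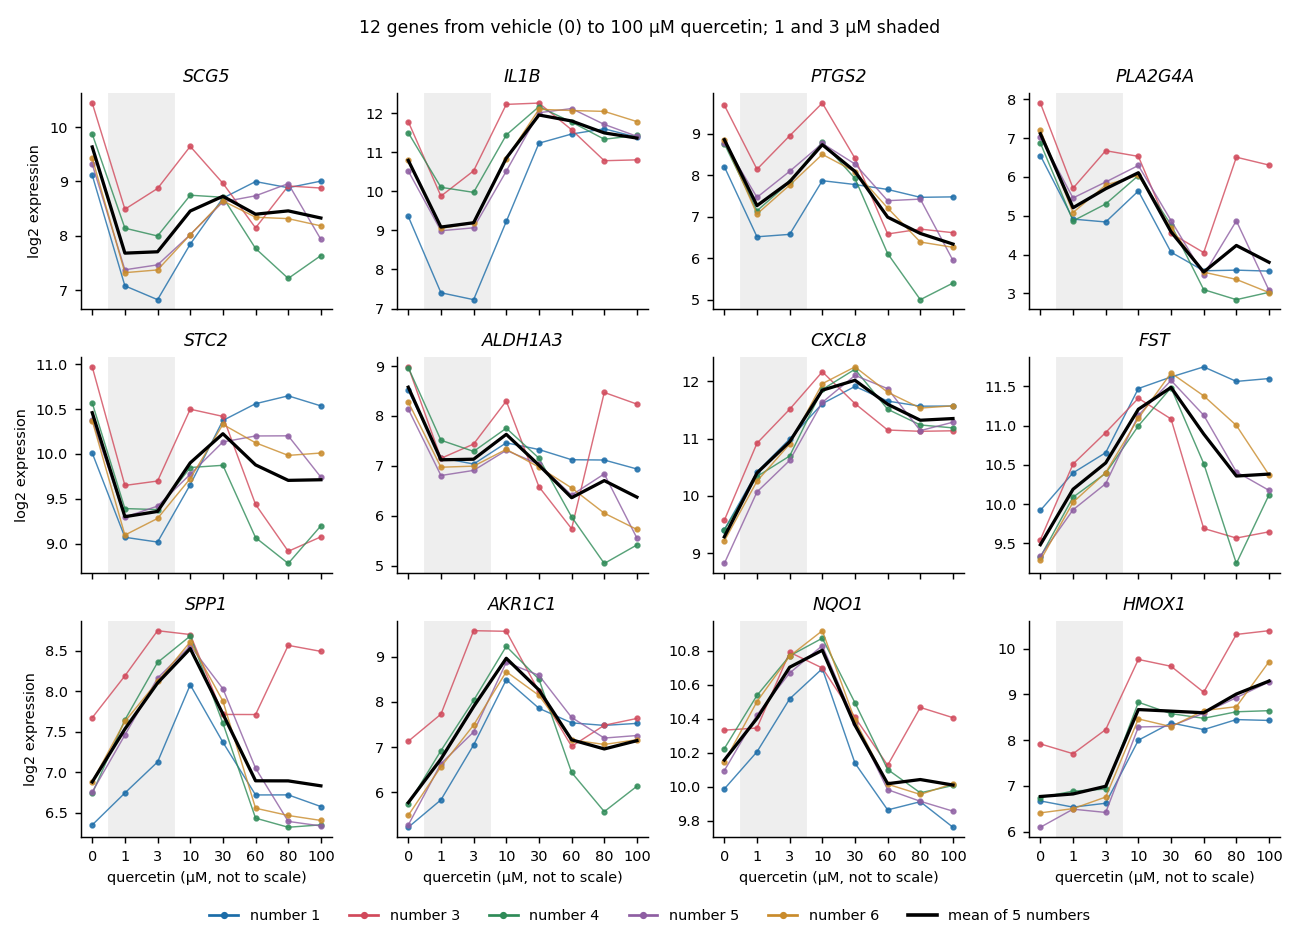
Log2 signal of 12 genes in vehicle (0) and at 1, 3, 10, 30, 60, 80 and 100 µM quercetin; thin coloured lines join arrays of the same number, the black line is the mean, and the shaded band marks 1 and 3 µM. SCG5, IL1B and STC2 are lowest at 1 or 3 µM and higher at 10 µM, the CXCL8 mean is 12.02 at 30 µM, and the HMOX1 mean is 6.99 at 3 µM and 8.67 at 10 µM.

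Of 28 measured genes of the matrix and its proteases, 7 fell at 1 µM (3.9% of all genes did) and 8 at 3 µM (5.97%), where collagen COL6A3 rose (0.13), and most did not pass. The list's median change was -0.03 and -0.07. MMP1, the interstitial collagenase, read 7.44, 8.96, 8.08, 7.25 and 7.21 in vehicle, 6.43, 7.91, 7.07, 6.65 and 6.20 at 1 µM, and 6.48, 8.35, 7.02, 6.76 and 6.54 at 3 µM, lower in 5 of 5 numbers though overlapping (1.91-fold and 1.69-fold). The gelatinase MMP2 (-0.43 and -0.44), its activator MMP14 (-0.28 and -0.19), plasminogen activator PLAT (-0.46 and -0.53) and collagen COL1A1 (-0.32 and -0.34) fell at both doses. Without the block MMP1 did not pass (adjusted p 0.94 and 0.805), nor did any other gene of the list (limma; 530 and 791 genes of all had an unadjusted p under 0.05).

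Targets of RAS and MAPK signalling were mixed, with 4 of 22 higher and 6 lower at each dose (of all genes, 4.28% and 3.9% at 1 µM, 6.77% and 5.97% at 3 µM). EGR1, an immediate early transcription factor, read 6.30, 7.28, 7.56, 6.82 and 7.04 in vehicle, 5.39, 6.74, 6.70, 6.19 and 6.29 at 1 µM, and 5.53, 6.44, 6.55, 6.14 and 6.40 at 3 µM. It was lower in 5 of 5 numbers, 1.67-fold and 1.73-fold. The survival gene IER3 (-0.39 and -0.36), the cytokine IL11 (-0.70 and -0.52) and the feedback inhibitor SPRY2 (-0.31 and -0.22) fell with it, and the phosphatase DUSP5 (0.24 and 0.43) and the growth factor HBEGF (0.23 and 0.23) rose. DUSP6, a direct MAPK reporter, reached at most 3.97 in any of the 15 arrays and was not tested. Without the block EGR1 did not pass (adjusted p 0.742 and 0.376), nor did any other gene of the list (limma; 530 and 791 genes of all had an unadjusted p under 0.05). EGR1 did not pass at either dose in the fit over all 8 groups (limma adjusted p 0.529 at 3 µM).

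Among histone genes falls were common. Of 12 measured, 6 were lower at each dose (3.9% and 5.97% of all genes) and H2AZ1 was higher at 3 µM (0.09), with a median of -0.15 and -0.22 beside 0.0071 and 0.0016 over all genes. H2BC4 read 5.93, 6.60, 5.99, 6.78 and 6.45 in vehicle, 5.63, 5.94, 5.93, 6.19 and 5.97 at 1 µM, and 5.18, 5.52, 5.54, 5.98 and 5.74 at 3 µM. It was lower at 3 than at 1 µM in 5 of 5 numbers, though that step did not pass (-0.34; adjusted p 0.0544). H2BC21 (-0.47 and -0.66), H2AC6 (-0.32 and -0.57), H2BC5 (-0.30 and -0.46), H1-2 (-0.25 and -0.26) and H2BC12 (-0.19 and -0.18) also fell. Members of this family share sequence, so single sizes are uncertain. Without the block none passed (limma; 530 and 791 genes of all had an unadjusted p under 0.05), and with number 2 kept 1 and 6 did. Of all genes tested, 148 and 318 passed as lower with number 2 kept.

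Of 24 hypoxia and glycolysis targets, 3 were lower at 1 µM (3.9% of all genes) and 10 at 3 µM (5.97%; median -0.10), and none was higher. VEGFA, the angiogenic growth factor, read 11.39, 11.86, 11.86, 11.82 and 11.78 in vehicle, 10.61, 11.38, 11.63, 11.35 and 11.41 at 1 µM, and 10.63, 11.40, 11.55, 11.57 and 11.37 at 3 µM, lower in 5 of 5 numbers (-0.47 ± 0.05 and -0.44 ± 0.05). Its probe sets differed in size, their mean giving -0.80 and -0.79. The glucose transporter SLC2A1 fell (-0.30 and -0.43). Without the block 0 of the list passed at 1 µM and 1 at 3 µM, and in the fit over all 8 groups 0 at either dose (limma; 357 and 536 genes of all had an unadjusted p under 0.05). Of all genes tested, 25 passed as lower at 3 µM without the block.

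In the other stress lists most genes did not pass; of all genes, 4.28% were higher and 3.9% lower at 1 µM, and 6.77% and 5.97% at 3 µM. The p53 targets had 4 of 29 higher at 1 µM and 6 at 3 µM, none lower, among them FAS (0.20 and 0.26) and MDM2 (0.16 and 0.14). CDKN1A, the cell cycle inhibitor p21, read 8.41, 8.53, 8.73, 8.55 and 8.53 in vehicle, 8.38, 8.82, 8.71, 8.50 and 8.42 at 1 µM, and 8.50, 8.33, 8.56, 8.32 and 8.46 at 3 µM. These overlapped (0.01, adjusted p 0.94; -0.12, adjusted p 0.23). Heat shock proteins had 0 of 14 at 1 µM and 2 higher at 3 µM, and endoplasmic reticulum chaperones 0 of 20 at 1 µM and 3 higher and 1 lower at 3 µM. At 10 µM against 3 µM, 19 of those 20 chaperones were higher, as were 16.4% of all genes. ATF4 targets had 7 higher and 2 lower of 28 at 1 µM and 5 higher and 3 lower at 3 µM, with ALDH1L2, a folate enzyme, at 0.47 and 0.50 and STC2 the largest fall. Without the block 0 p53 targets, heat shock proteins or chaperones passed (limma; 530 and 791 genes of all unadjusted). The ATF4 list then had 1 lower at each dose, where 15 and 25 of all genes tested were lower. In the fit over all 8 groups 0 genes of these lists passed at either dose (limma; 357 and 536 genes of all unadjusted).

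The counts that follow read against 4.28% of all genes higher and 3.9% lower at 1 µM, and 6.77% and 5.97% at 3 µM. Genes of G1/S and DNA replication had 5 of 30 higher at 1 µM and 9 higher and 1 lower at 3 µM, led by E2F8 (0.48 and 0.35), and those of mitosis 2 of 30 and 1 of 30. Of 10 iron genes, 3 rose and 2 fell at 1 µM and 3 rose and 3 fell at 3 µM. The importers TFRC (0.15 and 0.28) and SLC11A2 (0.20 and 0.35) rose, and FBXL5, the ligase that senses iron and degrades IRP2, fell (-0.27 and -0.31). Metallothioneins and zinc transporters had 3 of 12 lower at each dose, MT1F (-0.20 and -0.24) and MT2A (-0.17 and -0.17) at both. Cholesterol and fatty acid synthesis had 1 of 24 higher at 1 µM and 1 higher and 2 lower at 3 µM, and interferon-stimulated genes 3 of 19 lower at 1 µM and 2 higher and 3 lower at 3 µM. The remaining lists moved both ways or hardly: immediate early genes 5 of 19 higher and 2 lower at 1 µM and 3 and 3 at 3 µM, PI3K-AKT and FOXO genes 4 of 21 higher and 2 lower and then 4 and 4, and TGF-beta, YAP and SRF targets 3 of 27 higher and 4 lower and then 5 and 4. In these, the BMP target ID3 (0.27 and 0.31) and the stress sestrin SESN3 (0.36 and 0.36) rose at both doses, and the TGF-beta inhibitors SMAD7 (-0.30 and -0.22) and SKIL (-0.26 and -0.25) fell. Lipid efflux genes had 1 of 7 higher and 1 lower, ABCA1 (-0.19 and -0.26), and ribosome biogenesis 1 of 25 higher at each dose. Of mesenchymal markers 2 of 13 rose and 2 fell at 1 µM, and 2 rose and 4 fell at 3 µM. Housekeeping genes had 1 of 9 lower, SDHA (-0.11 and -0.12). The epithelial markers KRT15 (-0.44), KRT18 (-0.21) and KRT8 (-0.18) fell at 3 µM, while CDH1 and EPCAM were under 4; their part in the other changes was not tested. Without the block 0 genes of the lists in this paragraph passed at either dose (limma; 530 and 791 genes of all unadjusted). The fit over all 8 groups likewise passed 0 of them (limma; 357 and 536 genes of all unadjusted).

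**Figure D4:**
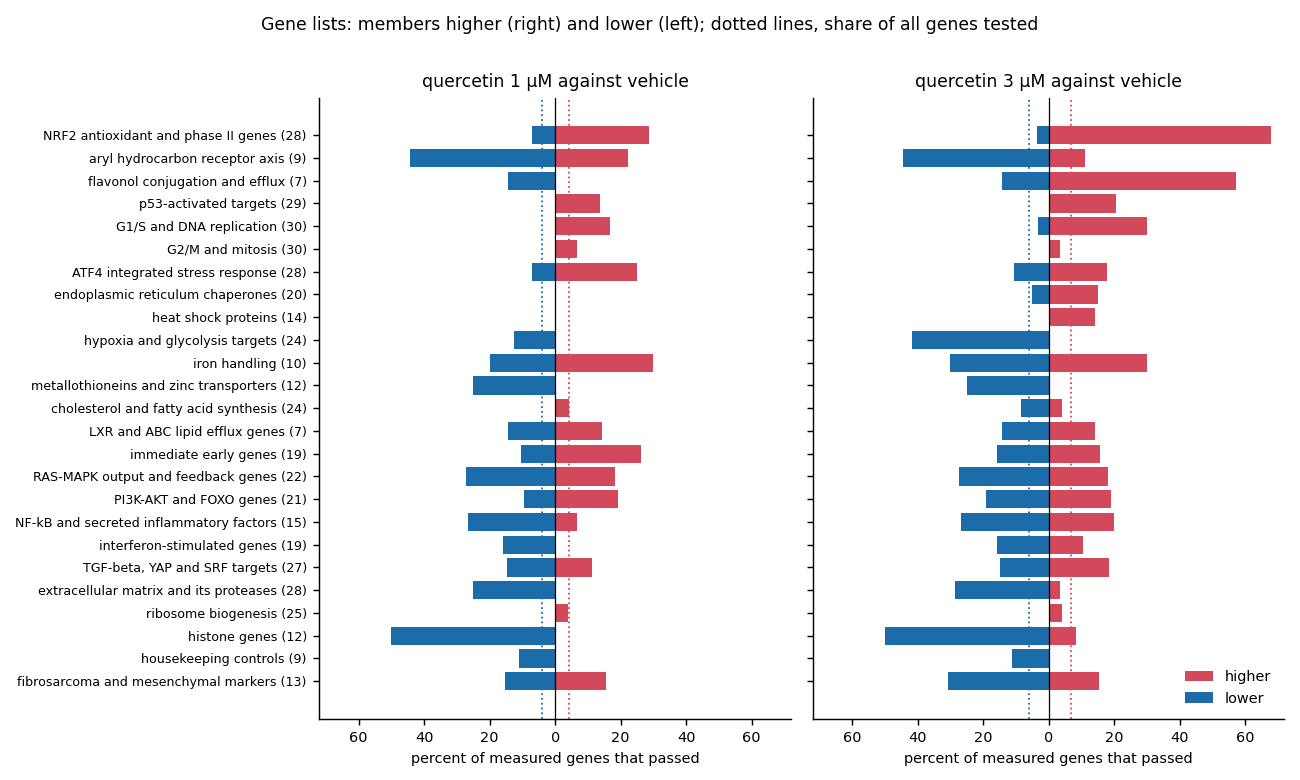
Percent of the measured genes of each list that passed as higher (right) or lower (left) at 1 and 3 µM, for the 25 lists with at least 7 measured genes; dotted lines give the share of all genes tested. At 3 µM the NRF2 list reaches the highest share on the right, 19 of 28, and at both doses the histone list the highest on the left, 6 of 12. Lists and members were chosen with earlier results of these data known, so the shares are a description and not a test.

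For scale, the same fit on the lowest doses of the other chemicals of the series, with the same 5 numbers and each against its own vehicle, called 0 genes at the etoposide dose labelled 0.003 (limma; 491 with an unadjusted p under 0.05), 2 at that labelled 0.01, and 0 at the methyl methanesulfonate doses labelled 1 (482 unadjusted) and 3 (343 unadjusted). Quercetin in that 2-group fit called 801 at 1 µM and 1358 at 3 µM. The difference between chemicals was not tested.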

How the data were processed

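The authors deposited 1 table of Affymetrix log2 signals, made with Partek and GCRMA per the submitters' processing notes; their versions are not given in the sources used here. GCRMA subtracts a background estimated from probe sequence and sets arrays to 1 distribution, so shifts shared by all genes cannot be seen. From these log2 values, probe sets with 1 gene symbol and at least 4 in at least 5 of the 15 arrays were kept (20014 of 54613), and a gene took its probe set of highest mean, giving 10943 genes. Means below 4 were treated as indistinct from background.

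Groups were fitted with limma 3.58.1 (R 4.3.3; lmFit, eBayes with a mean-variance trend) with the replicate number as a fixed block, and p-values were adjusted by Benjamini-Hochberg over all genes tested. The pairing comes from the numbers in the sample titles. Deviations from group means had a correlation of 0.238 to 0.885 (mean 0.603) in 15 same-number pairs of different groups. In 60 other pairs of different groups it was -0.706 to 0.277 (mean -0.132), so the ranges overlapped. Deviations cancel within a group, so positive same-number correlations make the mean of the other pairs negative. That mean is therefore no separate evidence for the pairing. The 10 µM group was added to the same design for its own comparisons. The fit was tested on simulated data that kept the number effects of these arrays, so that test cannot judge the pairing by number.

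The rule named 131 genes: the 8 largest rises and falls with 1 sign in every number in each comparison with vehicle, up to 4 passed genes of each of 28 lists, the 4 largest steps each way between doses, and a set of pathway reporters; 2 further genes of the rule are not analysed here. List members named beyond it were chosen after their values were seen. Members and lists were chosen with earlier results of these data known, so a list share above that of all genes is a description and not a test. The number of arrays limits the precision. The alternatives left out or changed the block, the arrays, the filter, the probe set summary, the scaling and the trend. The vehicle array of number 4 has a title suffix that the labels do not explain, and it was also left out in turn. Figures were drawn with matplotlib 3.10.9.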

Additional observations from a re-analysis of the deposited data

Results flagged for a closer look

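Of 102 groups of 5 arrays (34 genes), 9 held an array set apart from the others by a gap over 0.71 of the group's range; chance sets apart about 1 in 20 groups. Number 3 was high for TFPI in vehicle (5.49, next 3.83), AKR1C1 in vehicle (7.13, next 5.74), HMOX1 at 3 µM (8.23, next 6.93) and MMP1 at 3 µM (8.35, next 7.02). Number 1 was low for AHR in vehicle (8.87, next 9.41) and at 1 µM (9.11, next 9.72), and for VEGFA in vehicle (11.39, next 11.78), at 1 µM (10.61, next 11.35) and at 3 µM (10.63, next 11.37). Each number carries its own vehicle array, and the block compares within numbers.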

How the results depend on the processing

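Counts are given in the order 1 µM, 3 µM, pooled, and 3 against 1 µM, where 895, 1394, 1552 and 80 genes passed. Without the replicate block 18, 47, 47 and 0 passed (limma; 530, 791, 840 and 99 unadjusted), 3 higher and 15 lower at 1 µM. A random block gave 530 at 1 µM and 9 for 3 against 1 µM. With number 2 kept 201, 609, 567 and 5 passed, and in the fit over all 8 quercetin groups 25, 45, 63 and 0 (74 unadjusted), 1 higher and 24 lower at 1 µM. Without the mean-variance trend 16 genes differed between doses. Leaving out each number in turn gave 525 to 769, 942 to 1268, 1028 to 1371 and 36 to 112. At 10 µM 4299 genes passed against vehicle and 3309 against 3 µM. Under alternatives chosen after seeing the data, 1622 and 631 passed without the block, and leaving out each number gave 3412 to 3931 and 2451 to 2937. The filter, scaling and other settings kept each count within 1.5 times.

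Of single named genes, 4129 results kept their side of the threshold and direction, 1038 no longer passed, 10 newly passed and 21 reversed; their cause was not tested. Of the reversed results NEK2 pooled had passed (0.10; adjusted p 0.0462), and the others had not. GDF15 reversed pooled with number 2 kept (0.005), without number 3 (0.0075) and without number 6 (4e-04), at 1 µM without number 3 (0.0015) and at 3 µM without number 1 (-0.0094). With probe sets averaged, NEK2 (-0.0244) and HMGCS1 (-0.0299) reversed pooled and MDM2 between doses (0.0188; 0.0307 without number 3). IFIT1 reversed at 3 µM without vehicle number 4 (-0.0125) or all of number 4 (-0.0755). HSPA1A did so between doses without number 1 (0.0079) and, without number 3, at 1 µM (-0.0013), 3 µM (-0.0113) and pooled (-0.0063). Without number 3, CDKN1A at 1 µM (-0.0548) and, between doses, MT1X (-0.0352) and EGR1 (0.0102) reversed. HMOX1 at 1 µM (-0.0293) and MT2A between doses (0.0114) reversed without number 5, and MT2A also without number 6 (0.0124). Leaving out each number in turn gave the following ranges for these genes. At 1 µM they were -0.0293 to 0.1232 (HMOX1), -0.0548 to 0.0416 (CDKN1A), -0.0871 to 0.0015 (GDF15) and -0.0013 to 0.102 (HSPA1A). At 3 µM they were -0.0094 to 0.0659 (GDF15), -0.0113 to 0.0877 (HSPA1A) and -0.0755 to 0.1577 (IFIT1), and pooled -0.0482 to 0.0075 (GDF15) and -0.0063 to 0.0837 (HSPA1A). Between doses they were -0.0386 to 0.0307 (MDM2), -0.0719 to 0.0079 (HSPA1A), -0.0352 to 0.1165 (MT1X), -0.0164 to 0.0124 (MT2A) and -0.0989 to 0.0102 (EGR1). GCLM at 1 µM passed narrowly (adjusted p 0.048) and was lost in 10 of 16 alternatives.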

Other observations

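The genes in these paragraphs lie outside the rule and were chosen after their values were seen, and they were not run under the alternative settings. PTGES and PTGER4 of the prostanoid route moved the opposite way to PLA2G4A and PTGS2. PTGES, the synthase that turns the cyclooxygenase product into prostaglandin E2, had means of 9.72 in vehicle, 9.98 at 1 µM and 10.17 at 3 µM, and rose by 0.25 ± 0.03 (SE; limma adjusted p 1.8e-05) and 0.45 ± 0.03 (2.1e-09). PTGER4, a receptor of that prostaglandin, rose by 0.29 and 0.28. Among TGF-beta family ligands, INHBA, the activin A subunit that follistatin binds, changed by -0.66 ± 0.05 (4.5e-09) at 1 µM and -0.35 ± 0.05 (3.5e-05) at 3 µM, from a vehicle mean of 8.82 to 8.15 and 8.46. BMP6 rose from 7.08 to 7.57 and 7.97, by 0.49 ± 0.06 (1.7e-05) and 0.88 ± 0.06 (1.3e-09).

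Other falls included the following genes. VDR, the vitamin D receptor, fell from 7.87 to 7.03 and 6.95, or 1.78-fold and 1.88-fold. KLF9, a transcription factor induced by glucocorticoids, fell from 10.06 to 9.21 and 9.28, or 1.81-fold and 1.71-fold, and TSC22D3, another such gene, fell (-0.45 and -0.59). WNT5A, a ligand of noncanonical WNT signalling, fell 1.86-fold and 1.64-fold. The cell surface and matrix genes ITGB8 (-0.76 and -0.81), ITGA11 (-0.63 and -0.63) and THBS1 (-0.51 and -0.61) fell at both doses, and ESM1, a proteoglycan, rose (0.52 and 0.91).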
